A study of Homo sapiens with 10 samples.

Results

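The kinesin motor genes are the human KIF genes, which encode motor proteins that walk along microtubules or take them apart. They were chosen by symbol from a table of TPM values (a length-corrected share of all transcripts, scaled to one fixed total in every library) as KIF, a number and an optional letter A, B or C, without pseudogenes, which gave 39 of 58174 genes. Of these, 11 belong to the families that carry cargo (KIF1, KIF3, KIF5 and KIF21, called transport kinesins here), 10 work in mitosis (KIF11, KIF14, KIF15, KIF18A, KIF18B, KIF20A, KIF20B, KIF23, KIF2C and KIF4A), and 18 are other kinesins.

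Kinesins use the energy of ATP to step along a microtubule, most of them toward its growing end. In neurons the transport families haul vesicles, mitochondria and other cargo from the cell body into axon and dendrites, so their balance is a matter of axonal supply. In dividing cells a separate set builds the spindle, moves chromosomes and splits the daughter cells, and these genes are transcribed mainly around mitosis.

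RNA sequencing was done on 10 libraries of total RNA from SH-SY5Y, a human neuroblastoma line that divides in culture and keeps features of immature sympathetic neurons. The siTDP-43 group (3 libraries, replicates 1 to 3) was transfected with a pool of siRNAs against TDP-43, the RNA-binding protein encoded by TARDBP, at 50 nM for 96 h in 2 doses, and the siControl group (3 libraries, replicates 1 to 3) with a control siRNA pool at the same concentration and time. The N352S group (2 libraries, replicates 81 and 82) carried the homozygous N352S change in TDP-43, made by genome editing, and the wild type group (2 libraries, replicates 79 and 80) carried unedited TDP-43. The series calls the libraries biological replicates, but clones are not named in the sources used here, so an effect of the N352S change and a difference between edited lines cannot be told apart.

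TARDBP itself had 62.3, 63.1 and 67.7 TPM in siTDP-43 libraries, against 256, 256 and 256 TPM in siControl libraries. It fell by 1.98 ± 0.04 on the log2 scale (SE; limma adjusted p = 3.844e-08). The N352S libraries had 123 and 122 TPM, against 196 and 205 TPM in wild type libraries, a fall by 0.70 ± 0.05 (SE; limma adjusted p = 1.93e-05). Here and below, fold changes are on the log2(TPM + 1) scale and a gene is called when its adjusted p was under 0.05, taken over all 17118 genes that averaged 1 TPM or more.

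The line's own identity was checked from marker genes. All 11 noradrenergic neuroblast markers had a mean of at least 1 TPM, although tyrosine hydroxylase (TH) reached at most 3.42 TPM, and their summed level was 6011 to 6205 TPM in siTDP-43, 5372 to 5562 in siControl, 4918 to 5198 in N352S and 5463 to 5549 in wild type libraries. Of 8 mesenchymal-type markers 7 were above 1 TPM, with PRRX1 at or near 0, and they summed to 639 to 662, 654 to 718, 926 to 967 and 537 to 551 TPM in the same order of groups. Of 6 Schwann cell markers 3 were above 1 TPM, with SOX10 at or near 0, and they summed to 32.5 to 34.6, 57.8 to 58.7, 64.8 to 69.0 and 54.1 to 61.0 TPM in that order; their part in the kinesin changes was not tested. Mitochondrially encoded genes took 15.5 to 16.2% of TPM in siTDP-43 and 12.0 to 14.3% in siControl libraries, and 13.6 to 14.1% in N352S and 14.0 to 14.8% in wild type libraries. TPM values keep no read depth, so the depth behind each value is unknown, and genes near 1 TPM are the least certain.

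Of the 39 kinesins, 33 reached the mean of 1 TPM and were tested, among them all 11 transport and all 10 mitotic kinesins and 12 of the 18 others. KIF21A and KIF5B were the most abundant transport kinesins, KIF20A and KIF2C the most abundant mitotic ones, and KIF22 and KIF2A the most abundant others. KIF21B, the least abundant transport kinesin, stayed between 0.53 and 2.03 TPM. The 6 untested genes were KIF6 (0.28 to 1.53 TPM), KIF25 (0.32 to 1.00), KIF12 (0.00 to 0.89), KIF4B (0.08 to 0.30), KIF19 (0.00 to 0.60) and KIF2B, listed at 0 in every library. KIF4B is a near-identical copy of KIF4A, so its few reads are uncertain.

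**Figure D1:**
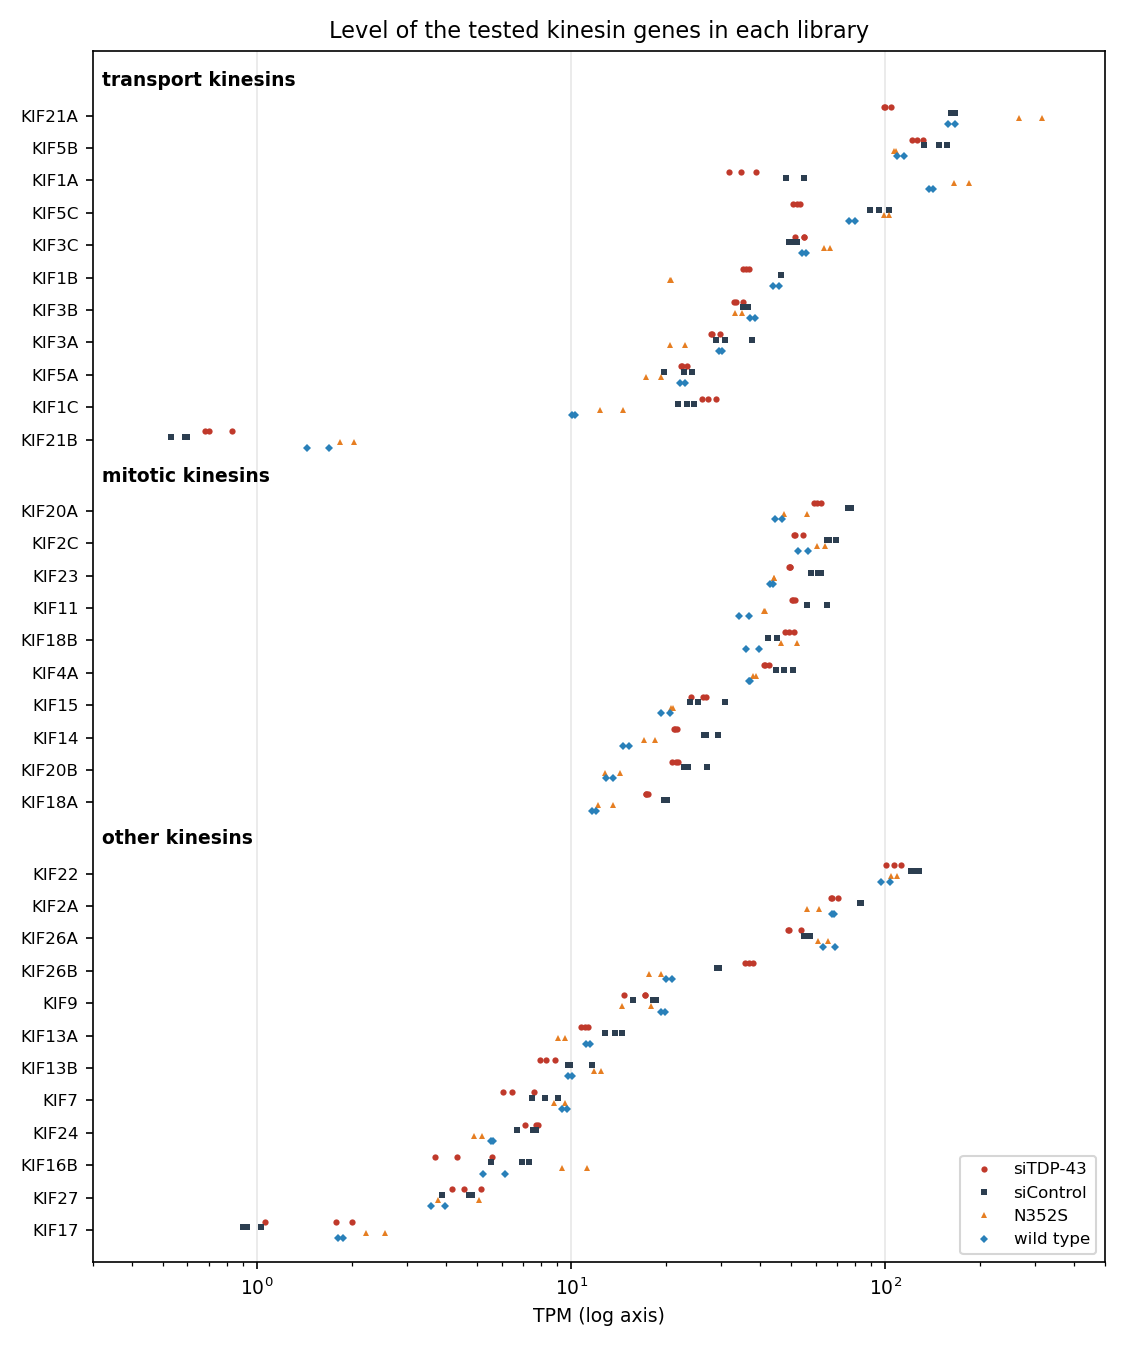
TPM of the 33 tested kinesins in every library, on a log axis, with 1 point per library and the groups in colour, ordered within transport, mitotic and other kinesins. KIF21A reached 316 and 267 TPM in the N352S libraries and 99.8, 99.0 and 104 TPM in the siTDP-43 libraries.

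The first comparison asks what losing TDP-43 by siRNA did to kinesin transcripts. Of the 11 transport kinesins, 5 fell in siTDP-43 cells (KIF5C, KIF21A, KIF1B, KIF1A and KIF5B), 1 rose (KIF1C) and 5 did not pass the test, beside 19.8% of all tested genes that fell and 6.19% that rose. The neuronal kinesin-1 KIF5C was down to 54.5% of its siControl mean and KIF21A to 61.2%. The median log2 change of the transport kinesins was -0.17, against -0.08 for all tested genes.

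KIF5C (chr2:148875250-149026759, plus strand of hg38 in the GENCODE 29 annotation) is one of 3 heavy chains of kinesin-1 and is made mainly in neurons. It had 52.3, 53.7 and 51.0 TPM in siTDP-43 libraries, against 89.8, 95.6 and 103 TPM in siControl libraries. The groups did not overlap, and the lowest siControl library was well above the highest siTDP-43 one. KIF5C fell by 0.86 ± 0.05 (SE; limma adjusted p = 1.598e-05).

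KIF21A (chr12:39293228-39443390, minus strand) is a kinesin-4 that restrains microtubule growth near the cell cortex and is mutated in congenital fibrosis of the extraocular muscles. Its TPM was 99.8, 99.0 and 104 in siTDP-43 libraries, against 166, 167 and 162 in siControl libraries. All siTDP-43 libraries lay below all siControl libraries, with little spread in either group. The fall was 0.70 ± 0.06 on the log2 scale (SE; limma adjusted p = 8.687e-05).

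KIF1A (chr2:240713761-240821036, minus strand) is the kinesin-3 that carries synaptic vesicle precursors and dense-core vesicles. Its siTDP-43 libraries had 38.7, 34.8 and 31.7 TPM, against 55.3, 55.3 and 48.4 TPM in siControl libraries. The groups were separate, and siControl replicate 3 was the lowest of its group. The log2 change was -0.58 ± 0.08 (SE; limma adjusted p = 0.001044).

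KIF1B (chr1:10210805-10381603, plus strand) moves mitochondria and synaptic vesicle precursors and lies in the part of chromosome arm 1p that neuroblastomas often lose. It had 35.4, 36.8 and 36.1 TPM in siTDP-43 libraries, against 46.5, 46.7 and 46.4 TPM in siControl libraries. The gap between the groups was many times the spread within either, and the log2 change was -0.36 ± 0.04 (SE; limma adjusted p = 2.341e-04).

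KIF5B, the kinesin-1 heavy chain found in nearly all cells, had 122, 132 and 126 TPM in siTDP-43 libraries, against 133, 158 and 149 TPM in siControl libraries. The groups came close to touching, and the log2 change was -0.20 ± 0.06 (SE; limma adjusted p = 0.0367). KIF1C, a broadly made kinesin-3, averaged 27.4 ± 1.44 TPM in siTDP-43 and 23.3 ± 1.42 TPM in siControl libraries (SD, n = 3 each) and rose by 0.23 ± 0.07 (SE; limma adjusted p = 0.0481).

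The kinesin-2 motors and the remaining pair did not pass the test. KIF3A and KIF3B, which pair in the motor of intraflagellar transport, had log2 changes of -0.17 and -0.08 (limma adjusted p = 0.20 and 0.23). KIF3C, a neuronal kinesin-2 motor, had 0.08 (limma adjusted p = 0.17). KIF5A, the neuronal kinesin-1 mutated in familial ALS and spastic paraplegia, had 22.3, 23.4 and 22.6 TPM in siTDP-43 libraries, against 19.7, 24.2 and 22.9 TPM in siControl libraries. KIF5A's groups overlapped, with a log2 change of 0.04 and a 95% interval of -0.14 to 0.21. KIF21B, a kinesin-4 like KIF21A, was at 0.74 ± 0.08 TPM in siTDP-43 and 0.57 ± 0.04 TPM in siControl libraries (SD, n = 3 each; limma adjusted p = 0.44).

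Within the kinesin-1 family KIF5C gave 25.9 ± 0.57% of TPM in siTDP-43 and 36.3 ± 1.62% in siControl libraries (SD, n = 3 each). KIF5B gave 62.8 ± 0.61% and 55.3 ± 1.37%, and KIF5A 11.3 ± 0.07% and 8.41 ± 0.29%. In the KIF1 family KIF1C gave 27.8 ± 1.95% in siTDP-43 and 19.0 ± 1.52% in siControl libraries, and KIF1A 35.5 ± 2.92% and 43.1 ± 2.29%. The shares are a description, with no test.

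**Figure D2:**
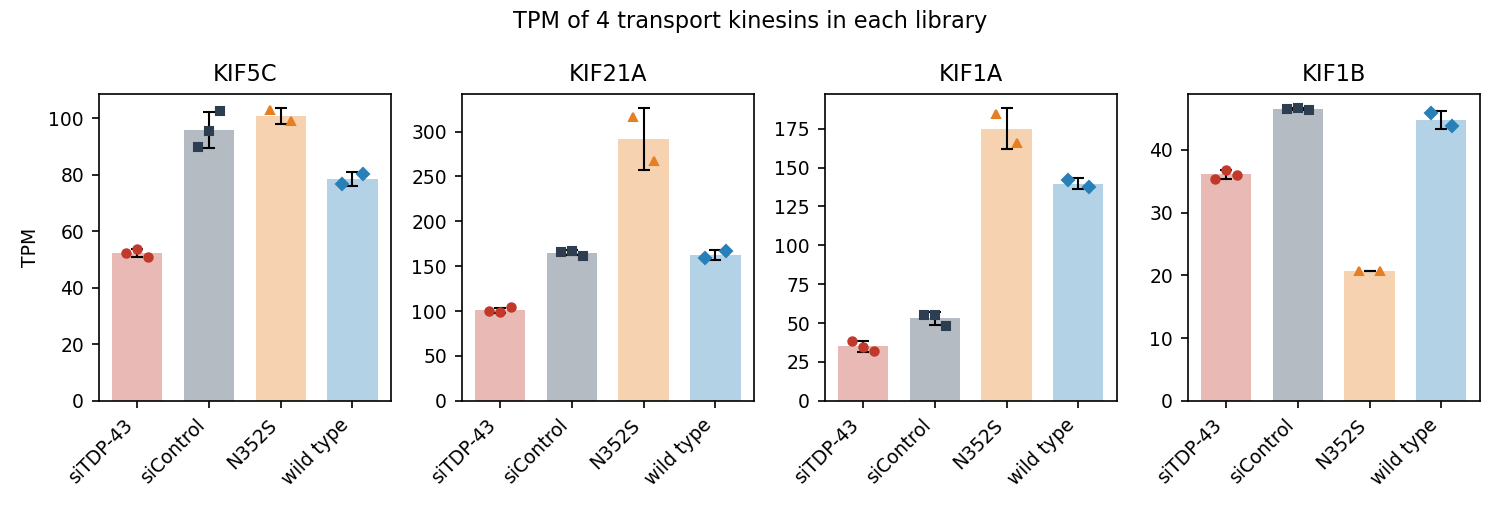
TPM of KIF5C, KIF21A, KIF1A and KIF1B in each library, with points for libraries, a bar for each group mean and error bars of 1 SD, siTDP-43 left of siControl and N352S left of wild type. KIF5C, KIF21A and KIF1A were lower in siTDP-43 than in siControl libraries and higher in N352S than in wild type libraries, whereas KIF1B was lower in both.

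Mitotic kinesins fell in the same libraries. Of 10, 7 fell (KIF23, KIF2C, KIF14, KIF20A, KIF4A, KIF11 and KIF18A), none rose and 3 did not pass the test (KIF18B, KIF20B and KIF15), beside the same 19.8% of all tested genes that fell. Their median log2 change was -0.20. In bulk RNA, fewer cells in mitosis and less kinesin RNA per mitotic cell cannot be told apart.

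KIF20A (chr5:138178719-138187715, plus strand), which brings the chromosomal passenger complex to the spindle midzone, had 62.5, 60.6 and 59.5 TPM in siTDP-43 libraries, against 78.0, 76.5 and 76.2 TPM in siControl libraries. The groups were far apart relative to their spread, with a log2 change of -0.33 ± 0.06 (SE; limma adjusted p = 0.003468). KIF2C, which takes microtubules apart at kinetochores, had 51.1, 51.5 and 54.6 TPM in siTDP-43 libraries, against 65.2, 69.7 and 66.0 TPM in siControl libraries. The groups again did not overlap, and the log2 change was -0.35 ± 0.05 (SE; limma adjusted p = 0.001101).

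KIF23, the motor of the centralspindlin complex that guides cytokinesis, had 49.8, 49.7 and 49.4 TPM in siTDP-43 libraries, against 58.0, 61.0 and 62.3 TPM in siControl libraries. Its siTDP-43 libraries were almost identical and all below the siControl libraries (log2 change -0.28 ± 0.04, SE; limma adjusted p = 8.814e-04). KIF14, which acts in cytokinesis with citron kinase, had 21.7, 21.4 and 21.3 TPM in siTDP-43 libraries, against 26.5, 26.9 and 29.4 TPM in siControl libraries. These groups were separate too (log2 change -0.35 ± 0.05, SE; limma adjusted p = 0.002093).

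The smaller falls were of KIF11, which pushes the spindle poles apart (log2 change -0.21, limma adjusted p = 0.0277), of KIF4A, which binds chromosomes and organises the midzone (-0.19, limma adjusted p = 0.0191), and of KIF18A, which aligns chromosomes at the metaphase plate (-0.18, limma adjusted p = 0.0287). KIF18B, which shortens astral microtubules, went against the rest of its class: it had 47.9, 49.5 and 51.2 TPM in siTDP-43 libraries, against 45.2, 45.2 and 42.3 TPM in siControl libraries. Its groups did not overlap, but the test missed the threshold (log2 change 0.16, limma adjusted p = 0.0716). KIF15, which can stand in for KIF11 on the spindle, had overlapping groups and a log2 change of -0.04 (limma adjusted p = 0.75), and KIF20B, which acts late in cytokinesis, had -0.18 (limma adjusted p = 0.0972).

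In all, 8 mitotic kinesins had every siTDP-43 library below every siControl library and 1 had every one above, and for transport kinesins these counts were 5 and 2. Over all tested genes, 31.7% lay wholly below and 11.9% wholly above.

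Partners and substrates of the mitotic kinesins fell alongside them. Of 24 such genes, 21 fell and none rose, beside 19.8% of all tested genes that fell and 6.19% that rose, with a median log2 change of -0.35. PRC1, the midzone crosslinker that recruits KIF4A, averaged 162 ± 1.53 TPM in siTDP-43 and 223 ± 10.4 TPM in siControl libraries (SD, n = 3 each; limma adjusted p = 8.223e-05). HMMR, a spindle assembly factor, averaged 33.6 ± 0.94 and 56.8 ± 5.54 TPM (limma adjusted p = 1.171e-04), and cyclin B1 (CCNB1) 177 ± 3.205 and 240 ± 8.73 TPM (limma adjusted p = 4.689e-04). Of 15 general proliferation markers 5 fell and none rose, beside the same 19.8% and 6.19%, and their median log2 change of -0.09 was near the -0.08 of all tested genes. The called ones were led by MKI67, at 75.4 ± 0.75 TPM in siTDP-43 and 101 ± 2.50 TPM in siControl libraries (limma adjusted p = 1.301e-04), CCNA2 (limma adjusted p = 7.709e-04) and MCM6 (limma adjusted p = 0.001863). Of the kinesins whose symbols fall outside the KIF rule, the mitotic motors CENPE (18.7 ± 0.15 TPM in siTDP-43, 28.0 ± 3.02 in siControl) and KIFC1 (62.2 ± 2.56 and 82.2 ± 3.37) fell, and KIFC3, a minus-end motor, rose (12.6 ± 1.28 and 7.78 ± 0.97 TPM).

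Promoter sequence was not used in the selection. In the RefSeq promoter table (GRCh38.p14), 33 of the 39 kinesins had an entry, with the 5′-most taken for each gene and KIF5A, KIF13B, KIF19, KIF21B, KIF26B and KIF27 not in it. A pair of motifs known from cell cycle promoters, CCAAT and TTTGAA, were searched on both strands in the 250 bases before the start; they do not overlap each other in letters. CCAAT was found in 8 of 10 mitotic, 4 of 9 transport and 5 of 14 other kinesin promoters, and in 33.0% of all 27305 promoters. TTTGAA was found in 5 of 10 mitotic, 1 of 9 transport and 0 of 14 other kinesin promoters, and in 13.6% of all. Both were present in 4 of 10 mitotic promoters, 1 of 9 transport promoters (KIF5B) and 4.87% of all promoters. A match describes the letters only. The start here is that of the RefSeq entry, which differs from the GENCODE gene start for the genes shown. By the GENCODE spans, the windows printed for KIF18A, KIF23 and KIF21A lie inside the gene, and that of KIF4A lies partly inside. Only the KIF11 and KIF5C windows lie wholly before the gene. Bases inside a span may be transcribed, so they are not shown to be upstream of the gene. The last 100 bases before the start are shown for the 4 mitotic kinesins with both motifs, and for KIF5C and KIF21A as the transport kinesins with the smallest adjusted p, which hold neither there; all are written 5′ to 3′ on the strand of the gene, with capitals marking CCAAT or TTTGAA or their reverse complements ATTGG or TTCAAA. The windows are chr10:92593030-92593129 (plus strand) for KIF11, chr11:28108157-28108256 (minus) for KIF18A, chr15:69414249-69414348 (plus) for KIF23, chrX:70290004-70290103 (plus) for KIF4A, chr2:148875127-148875226 (plus) for KIF5C and chr12:39443121-39443220 (minus) for KIF21A.
KIF11: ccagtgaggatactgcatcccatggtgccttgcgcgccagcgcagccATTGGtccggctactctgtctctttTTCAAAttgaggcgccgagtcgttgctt
KIF18A: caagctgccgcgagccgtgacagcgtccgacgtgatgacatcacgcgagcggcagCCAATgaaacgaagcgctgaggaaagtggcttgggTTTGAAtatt
KIF23: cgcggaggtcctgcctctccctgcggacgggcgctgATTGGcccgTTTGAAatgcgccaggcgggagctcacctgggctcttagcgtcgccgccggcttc
KIF4A: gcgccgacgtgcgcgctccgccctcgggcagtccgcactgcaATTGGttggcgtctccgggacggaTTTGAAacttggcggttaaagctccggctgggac
KIF5C: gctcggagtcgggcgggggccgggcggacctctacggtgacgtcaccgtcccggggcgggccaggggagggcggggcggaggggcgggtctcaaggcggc
KIF21A: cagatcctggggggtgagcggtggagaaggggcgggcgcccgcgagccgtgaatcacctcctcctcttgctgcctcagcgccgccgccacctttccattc

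In KIF23 and KIF4A an ATTGG stood a short way upstream of TTTGAA, and in KIF11 and KIF18A both motifs again lay within the last 100 bases. Of the other mitotic kinesins, KIF14, KIF18B, KIF20A and KIF20B hold CCAAT alone, KIF15 holds TTTGAA alone and KIF2C holds neither in the 250 bases. Of the transport kinesins shown, KIF5C holds CCAAT farther upstream within the 250 bases, and KIF21A holds neither motif there.

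Of the 12 tested kinesins in neither class, 5 fell in siTDP-43 cells, 1 rose and 6 did not pass the test, beside 19.8% of all tested genes that fell and 6.19% that rose. With quantile normalization, and also with median-of-ratios scaling, 2 of these 12 fell and 1 rose. KIF26B, an atypical kinesin without motor activity known from kidney development in mice, had 37.8, 36.9 and 35.8 TPM in siTDP-43 libraries, against 29.02, 29.5 and 29.1 TPM in siControl libraries. It rose by 0.33 ± 0.05 (SE; limma adjusted p = 0.001206), and the groups did not overlap. KIF2A, a microtubule depolymeriser that in mice limits axon branches, had 67.3, 70.6 and 67.7 TPM in siTDP-43 libraries, against 82.9, 83.3 and 83.4 TPM in siControl libraries. The siControl libraries were almost equal and all higher (log2 change -0.28 ± 0.04, SE; limma adjusted p = 0.001553).

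KIF13A, a kinesin-3 that moves endosomes and melanosomes, had 10.8, 11.3 and 11.1 TPM in siTDP-43 libraries, against 12.8, 14.5 and 13.8 TPM in siControl libraries (log2 change -0.29 ± 0.06, SE; limma adjusted p = 0.007531). KIF22, a chromosome-binding kinesin and the most abundant of this class, had 107, 112 and 101 TPM in siTDP-43 libraries, against 123, 128 and 121 TPM in siControl libraries (log2 change -0.22, limma adjusted p = 0.0108). In both genes the groups were separate. KIF13B, a kinesin-3 (-0.28, limma adjusted p = 0.0252), and KIF16B, which moves early endosomes (-0.47, limma adjusted p = 0.0445), also fell, and KIF16B's groups overlapped. KIF7, the ciliary-tip regulator of Hedgehog signalling, KIF17, a kinesin-2 of dendrites and cilia, KIF26A, KIF9, KIF24 and KIF27 did not pass the test (limma adjusted p = 0.0655 to 0.85).

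**Figure D3:**
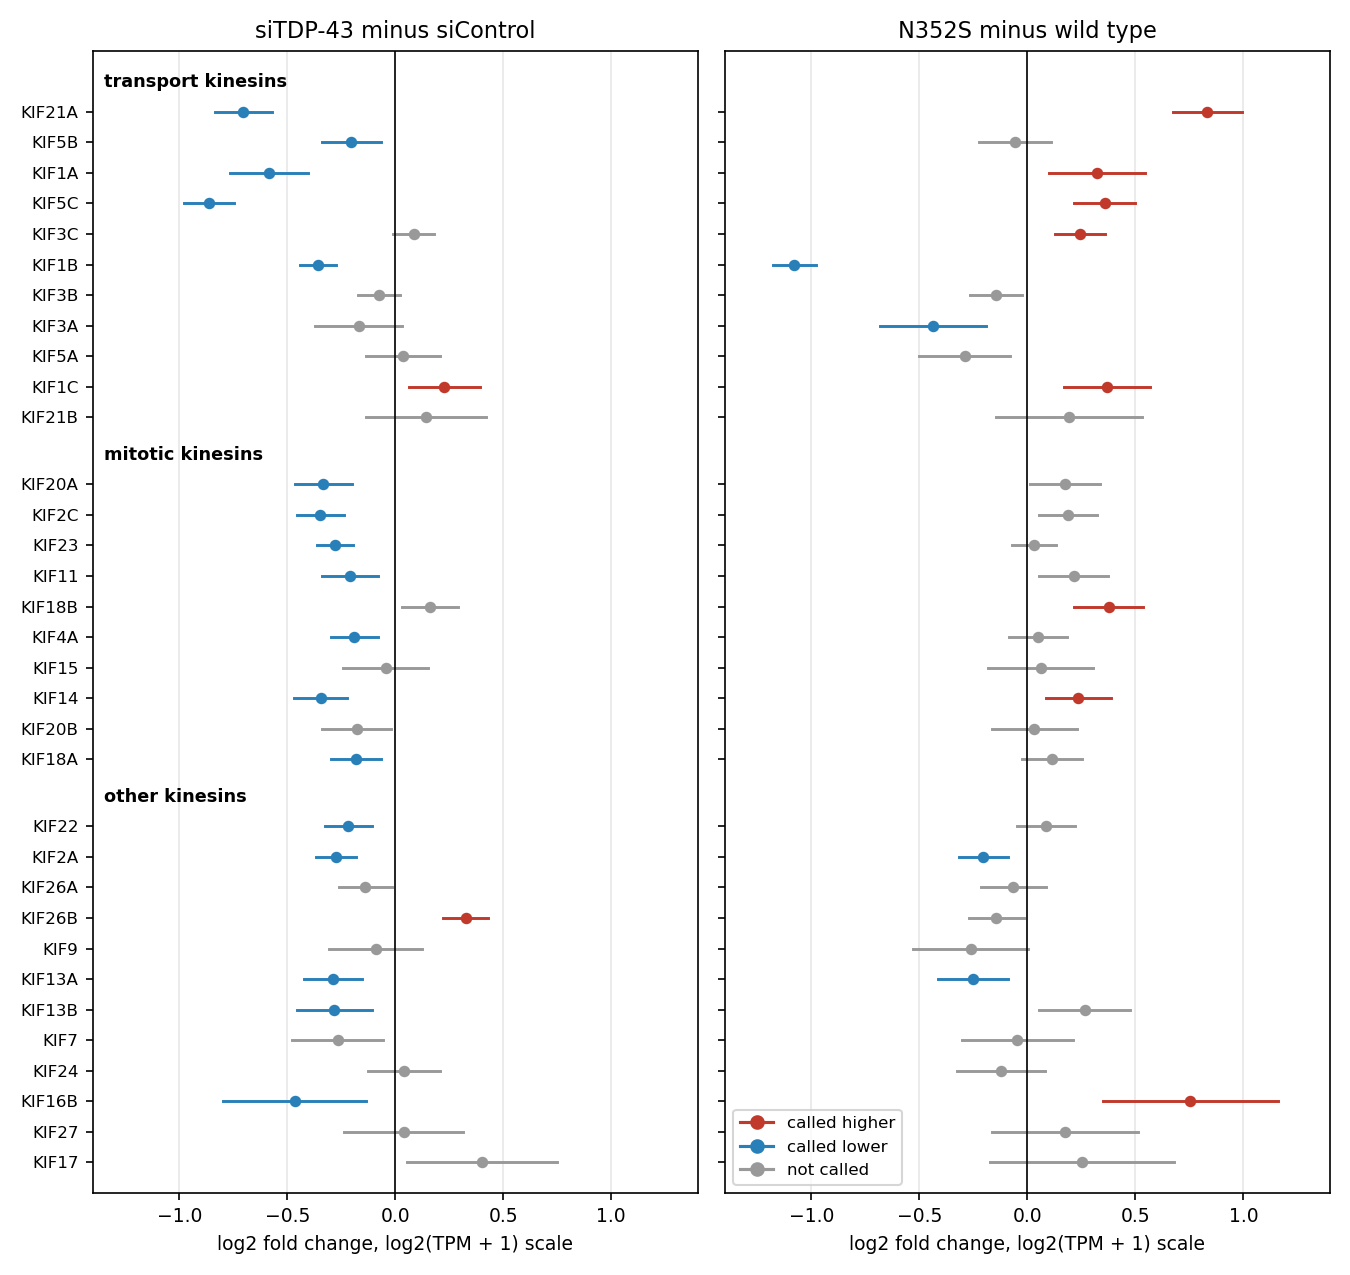
Log2 change on the log2(TPM + 1) scale of each tested kinesin with its 95% interval, for siTDP-43 minus siControl and for N352S minus wild type, with red points for genes called higher, blue for genes called lower and grey for those not called. Most mitotic kinesins lie below 0 in the first comparison and all 10 lie above 0 in the second, where 2 passed the test.

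Light chains and cargo adaptors link kinesins to their loads. Of 26 tested, 11 fell in siTDP-43 cells, 2 rose (TRAK2 and PLEKHM2) and 13 did not pass the test, beside 19.8% of all tested genes that fell and 6.19% that rose, with a median log2 change of -0.16. MADD, which tethers synaptic vesicle cargo to KIF1A and KIF1B, averaged 34.9 ± 0.66 TPM in siTDP-43 and 50.2 ± 1.19 TPM in siControl libraries (SD, n = 3 each; limma adjusted p = 1.18e-04). Among other members, the kinesin-1 light chain KLC1 had a log2 change of -0.27 (limma adjusted p = 0.001506) and KIFAP3, which completes the KIF3A and KIF3B motor, -0.47 (limma adjusted p = 0.001676); this pair was named after their values were seen.

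Of the 19 kinesin calls in siTDP-43 cells, 11 held under every alternative tried: KIF5C, KIF21A, KIF1A, KIF1B, KIF23, KIF2C, KIF14, KIF20A, KIF2A, KIF13A and KIF26B. Under median-of-ratios scaling 4 mitotic kinesins fell and 1 rose (KIF18B), 4 transport kinesins fell and 2 rose, and over all genes 2076 fell and 1935 rose, against 3389 and 1059 on the deposited scale. Without mitochondrially encoded genes, whose share was higher in every siTDP-43 library, 6 mitotic kinesins fell and 1 rose, and 4 transport kinesins fell and 2 rose. Calls were lost, with limma adjusted p of 0.0505 to 0.152, on leaving out any siTDP-43 library for KIF5B, KIF1C, KIF11 and KIF18A, siTDP-43 replicate 1 or 3 for KIF4A, KIF13B and KIF16B, siControl replicate 1 for KIF1C, KIF18A and KIF16B, siControl replicate 2 for KIF5B, KIF1C, KIF4A and KIF18A, siControl replicate 3 for KIF5B, KIF18A, KIF13B and KIF16B, either wild type library for KIF5B, KIF1C and KIF16B, or either N352S library for KIF5B and KIF16B. With replicate number as a block KIF18A and KIF16B were no longer called (limma adjusted p = 0.058 and 0.0722).

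The next comparison asks what the N352S change did. Transport kinesins went both ways: 5 of 11 rose in N352S cells (KIF21A, KIF5C, KIF3C, KIF1C and KIF1A), 2 fell (KIF1B and KIF3A) and 4 did not pass the test, beside 8.28% of all tested genes that rose and 11.9% that fell. KIF21A was at 179% of its wild type mean and KIF1B at 46.2%. The median log2 change of the transport kinesins was 0.19, against -0.03 for all tested genes.

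KIF21A had 316 and 267 TPM in N352S libraries, against 159 and 166 TPM in wild type libraries. Both N352S libraries were far above both wild type libraries, although they differed between themselves more than any other pair of this gene. It rose by 0.83 ± 0.07 (SE; limma adjusted p = 7.138e-05).

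KIF5C had 103 and 98.8 TPM in N352S libraries, against 76.6 and 80.2 TPM in wild type libraries. The groups were separate, and KIF5C rose by 0.36 ± 0.06 (SE; limma adjusted p = 0.0042). Its share of the kinesin-1 heavy chains was 44.5 ± 0.18% in N352S and 36.8 ± 1.28% in wild type libraries (SD, n = 2 each).

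KIF3C had 66.5 and 63.9 TPM in N352S libraries, against 55.8 and 54.2 TPM in wild type libraries, with no overlap (log2 change 0.24 ± 0.05, SE; limma adjusted p = 0.0107). KIF5B, the second most abundant transport kinesin, had 108 and 107 TPM in N352S libraries, against 114 and 109 TPM in wild type libraries (log2 change -0.06, limma adjusted p = 0.62). Its N352S libraries lay just below the wild type ones.

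KIF1A rose to 184 and 166 TPM in N352S libraries, against 142 and 137 TPM in wild type libraries (log2 change 0.32 ± 0.10, SE; limma adjusted p = 0.0479). KIF1C averaged 13.5 ± 1.57 TPM in N352S and 10.2 ± 0.16 TPM in wild type libraries (SD, n = 2 each) and rose by 0.37 ± 0.09 (SE; limma adjusted p = 0.0191). KIF3A averaged 21.9 ± 1.70 and 29.9 ± 0.37 TPM and fell by 0.44 ± 0.11 (SE; limma adjusted p = 0.0219). Within the kinesin-2 family KIF3A gave 18.03 ± 0.70% of TPM in N352S and 24.4 ± 0.67% in wild type libraries, and KIF3C 53.9 ± 0.58% and 44.8 ± 0.26%. KIF5A, KIF3B and KIF21B were not called (log2 changes -0.29, -0.15 and 0.19; limma adjusted p = 0.0568, 0.083 and 0.41), and KIF5A fell under the replicate block (limma adjusted p = 0.0462).

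KIF1B had 20.7 and 20.6 TPM in N352S libraries, against 45.8 and 43.8 TPM in wild type libraries. The groups were far apart, and KIF1B fell by 1.08 ± 0.04 (SE; limma adjusted p = 1.185e-06), the largest change of any tested kinesin in either comparison. It gave 9.90 ± 0.52% of KIF1 family TPM in N352S and 23.0 ± 0.15% in wild type libraries (SD, n = 2 each).

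Genes next to KIF1B on chromosome 1 were lower by about as much. Of the 5 nearest tested protein-coding genes on each side, 9 of 10 fell in N352S cells and none rose, beside 11.9% and 8.28% of all tested genes. Their log2 changes ran from -1.23 to -0.68, with a median of -0.98. DFFA, a subunit of the apoptotic DNA fragmentation factor, averaged 18.8 TPM in N352S and 45.2 TPM in wild type libraries (log2 change -1.23, limma adjusted p = 1.343e-05). PGD, an enzyme of the pentose phosphate pathway, averaged 77.0 and 168 TPM (log2 change -1.12, limma adjusted p = 6.164e-07). The exception was APITD1-CORT, at 1.05 and 3.10 TPM (log2 change -0.94, limma adjusted p = 0.0779). Its span holds that of CENPS on the same strand, so these 2 of the 10 are not separate.

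In siTDP-43 cells the same 10 neighbours had a median log2 change of 0.00. There 1 of them fell (LZIC), beside 19.8% of all tested genes, while KIF1B fell. TARDBP (chr1:11012344-11026420), itself lower in N352S cells, lies farther inward on the same arm. Around KIF17, the next kinesin inward, 1 of 10 neighbours rose in N352S cells (CAMK2N1) and none fell, beside 8.28% and 11.9% of all tested genes. The median there was -0.01. DNA copy number was not analysed here, so fewer gene copies and less RNA per copy cannot be told apart for KIF1B and its neighbours.

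**Figure D4:**
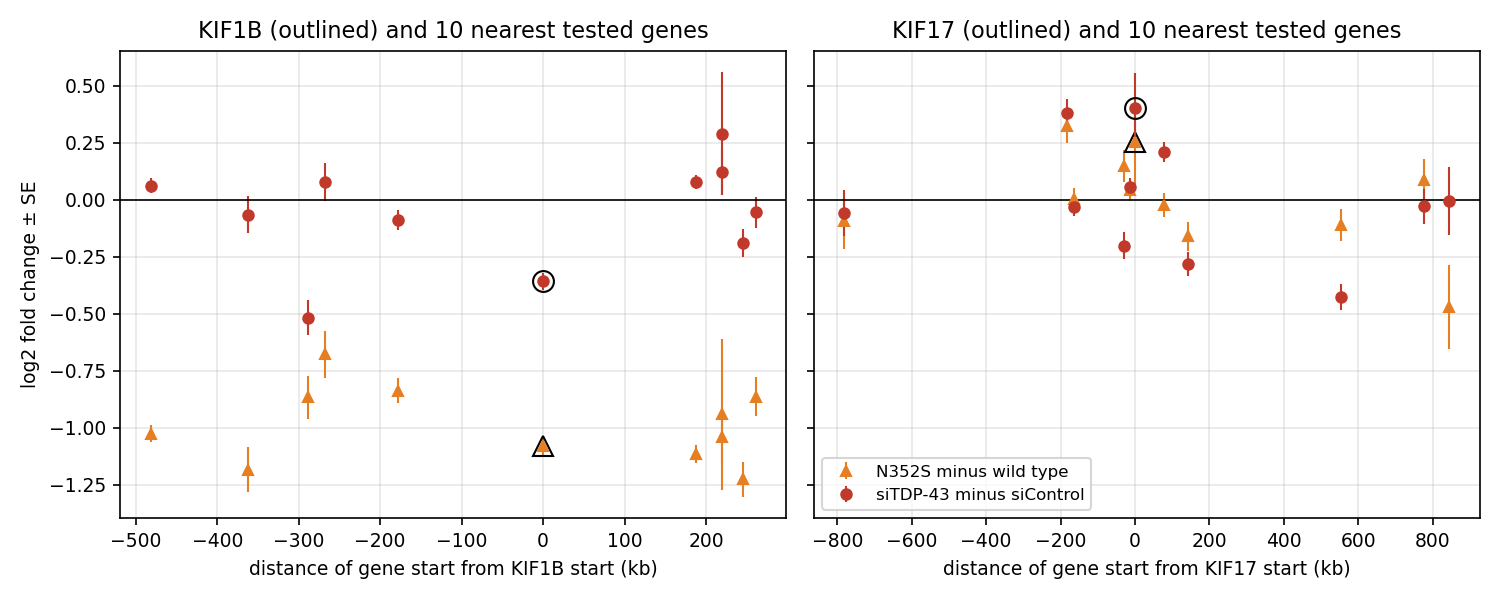
Log2 change of KIF1B, KIF17 and the 5 nearest tested protein-coding genes on each side, by the distance of their starts in kb, for siTDP-43 minus siControl and N352S minus wild type, with bars of 1 SE. Around KIF1B the N352S changes lie between -1.23 and -0.68, and around KIF17 their median is -0.01.

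All 10 mitotic kinesins had log2 changes above 0 in N352S cells, beside 7589 of all 17118 tested genes. Only 2 rose by the test (KIF18B and KIF14), beside 8.28% of all tested genes, and none fell. The median log2 change of the 10 was 0.14. For KIF20B, whose groups overlapped, the change ran from -0.0459 to 0.109 over the alternatives tried. KIF18B had 52.3 and 46.5 TPM in N352S libraries, against 36.1 and 39.5 TPM in wild type libraries (log2 change 0.38 ± 0.07, SE; limma adjusted p = 0.006004). KIF14 had 18.5 and 17.1 TPM in N352S libraries, against 14.6 and 15.3 TPM in wild type libraries (log2 change 0.24 ± 0.07, SE; limma adjusted p = 0.0365). In both genes the N352S libraries were the higher ones without overlap.

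The 2 most abundant mitotic kinesins missed the threshold. KIF20A had 56.3 and 47.6 TPM in N352S libraries, against 44.7 and 46.8 TPM in wild type libraries (log2 change 0.17, limma adjusted p = 0.12). KIF2C had 64.1 and 60.7 TPM in N352S libraries, against 56.8 and 52.6 TPM in wild type libraries (log2 change 0.19, limma adjusted p = 0.0537). KIF11 was close to the threshold as well (0.21, limma adjusted p = 0.0645), while KIF18A, KIF4A, KIF15, KIF23 and KIF20B had log2 changes of 0.03 to 0.11 (limma adjusted p = 0.24 to 0.84).

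Of the 24 mitotic partner genes 3 rose and none fell, beside 8.28% of all tested genes that rose and 11.9% that fell, with a median log2 change of 0.09. They were CDCA8, a passenger complex subunit, at 44.5 ± 0.47 TPM in N352S and 37.9 ± 0.36 TPM in wild type libraries (SD, n = 2 each; limma adjusted p = 0.007637), PRC1 (243 ± 4.42 and 212 ± 1.74 TPM) and RACGAP1, the partner of KIF23 in centralspindlin (114 ± 8.14 and 96.7 ± 5.23 TPM). Of 15 proliferation markers 2 rose (TOP2A and MYBL2) and 2 fell (MCM7 and MCM5), near those shares of all tested genes. None of the 4 kinesins outside the KIF rule passed the test. Of 26 adaptors and light chains 5 rose and 1 fell, beside the same 8.28% and 11.9%, among them PLEKHM2 (limma adjusted p = 0.0144) and KIDINS220 (limma adjusted p = 0.0244), which rose, and MAPK8IP2, a JNK-pathway scaffold bound by kinesin-1, which fell (limma adjusted p = 0.0112).

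Among the 12 other tested kinesins 1 rose in N352S cells and 2 fell, near the 8.28% and 11.9% of all tested genes. KIF16B had 9.36 and 11.2 TPM in N352S libraries, against 6.15 and 5.22 TPM in wild type libraries, with no overlap (log2 change 0.75 ± 0.18, SE; limma adjusted p = 0.0179). KIF2A had 61.7 and 56.2 TPM in N352S libraries, against 68.5 and 67.6 TPM in wild type libraries (log2 change -0.21 ± 0.05, SE; limma adjusted p = 0.0202). KIF13A had 9.55 and 9.10 TPM in N352S libraries, against 11.2 and 11.4 TPM in wild type libraries (log2 change -0.25 ± 0.07, SE; limma adjusted p = 0.0379). Both falls were small but left no overlap. KIF22, the most abundant of the class, had 109 and 104 TPM in N352S libraries, against 104 and 97.1 TPM in wild type libraries, which did not pass the test (limma adjusted p = 0.36).

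With 2 libraries a group, separate groups were common: all N352S libraries lay above all wild type libraries for 6 transport and 9 mitotic kinesins, and below for 5 and 0, beside 25.4% of all tested genes above and 34.7% below. The mesenchymal-type marker sum was 926 to 967 TPM in N352S and 537 to 551 TPM in wild type libraries, with VIM at 687 ± 27.3 and 362 ± 1.36 TPM (SD, n = 2 each). The list did not move as one: of 7 tested markers 4 rose (VIM, TWIST1, SNAI2 and NOTCH2), 2 fell (CD44 and YAP1) and FN1 did not pass the test. Its part in the kinesin changes was not tested.

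Of the 12 calls in N352S cells, KIF1B, KIF21A and KIF5C held under every alternative tried. The others were lost, with limma adjusted p of 0.0501 to 0.212, on leaving out N352S replicate 81 (KIF3C, KIF1A, KIF14, KIF13A), N352S replicate 82 (KIF1C, KIF3A, KIF1A, KIF16B, KIF2A, KIF13A), wild type replicate 79 (KIF18B, KIF14, KIF1C, KIF3A, KIF1A, KIF16B, KIF2A, KIF13A), wild type replicate 80 (KIF3C, KIF14, KIF1C, KIF3A, KIF1A, KIF16B, KIF2A, KIF13A), or siRNA libraries that share the estimate of spread (siTDP-43 replicates 1 and 3 for KIF14 and KIF13A, siTDP-43 replicate 2 for these and KIF1A, siControl replicate 1 for KIF1A and siControl replicate 2 for KIF1A and KIF14). KIF14 was also lost under the replicate block (limma adjusted p = 0.0603). With only the compared groups fitted, KIF18B, KIF14, KIF1C, KIF2A and KIF13A were lost (limma adjusted p = 0.0582 to 0.138). KIF1A was lost with a pseudocount of 0.1, no filter, quantile normalization, no mitochondrially encoded genes, no variance trend or weighted libraries (limma adjusted p = 0.051 to 0.102). KIF14, KIF3A and KIF13A were lost with no filter too, and KIF13A with weighted libraries.

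Side by side, 5 kinesins fell in siTDP-43 cells and rose in N352S cells: KIF21A, KIF5C, KIF1A, KIF14 and KIF16B. Another 4 moved one way in both: KIF1B, KIF2A and KIF13A fell, and KIF1C rose. Of these kinesins only KIF21A, KIF5C and KIF1B held both calls under every alternative tried. The share of all tested genes called in both comparisons was not counted, so these counts are a description. A test of the difference itself, the siTDP-43 effect minus the N352S effect, was called negative for 12 kinesins and called positive for 2 (KIF1B and KIF26B), beside 13.8% and 8.2% of all tested genes. By class, 6 of 10 mitotic kinesins were called negative and none positive, and 3 of 11 transport kinesins were called negative and 1 positive. Under quantile normalization, where 2001 of all tested genes were called positive and 1944 negative against 1404 and 2362 on the deposited scale, the mitotic count was again 6 of 10. The difference for KIF21A was -1.54 ± 0.09 (SE; limma adjusted p = 1.156e-05), for KIF5C -1.22 ± 0.08 (limma adjusted p = 1.971e-05) and for KIF1A -0.91 ± 0.13 (limma adjusted p = 0.001217).

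For KIF1B, which fell in both, the difference of 0.72 ± 0.06 (SE; limma adjusted p = 5.622e-05) says that it fell more in N352S cells. For KIF2A and KIF13A the difference was -0.07 and -0.03, with 95% intervals of -0.22 to 0.08 and -0.25 to 0.18, which leave room for unequal effects in either direction. The calls of KIF11 (without wild type replicate 79), KIF22 (without siControl replicate 2, N352S replicate 81 or wild type replicate 80) and KIF18A (without any of 8 libraries, all but siControl replicate 1 and N352S replicate 82) were lost with limma adjusted p of 0.0502 to 0.0978, and KIF18A also under the replicate block (0.0593).

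The sums of TPM show how the whole classes stood. Transport kinesins summed to 512, 526 and 518 TPM in siTDP-43 libraries, against 647, 686 and 683 TPM in siControl libraries, and mitotic kinesins to 391, 391 and 391 TPM, against 441, 452 and 470 TPM. Both sums were lower in every siTDP-43 library. The ratio of transport to mitotic TPM was 1.33 ± 0.02 in siTDP-43 and 1.48 ± 0.03 in siControl libraries (SD, n = 3 each).

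In the edited lines transport kinesins summed to 890 and 811 TPM in N352S libraries, against 696 and 693 TPM in wild type libraries, and mitotic kinesins to 364 and 341 TPM, against 311 and 317 TPM. Both sums were higher in N352S libraries. The ratio was 2.41 ± 0.05 in N352S and 2.21 ± 0.04 in wild type libraries (SD, n = 2 each). The ratios moved when the most abundant gene of each class, KIF21A and KIF20A, was left out. Without these genes the log2 ratio of N352S over wild type was -0.09 instead of 0.12. That of siTDP-43 over siControl was -0.09 instead of -0.16.

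**Figure D5:**
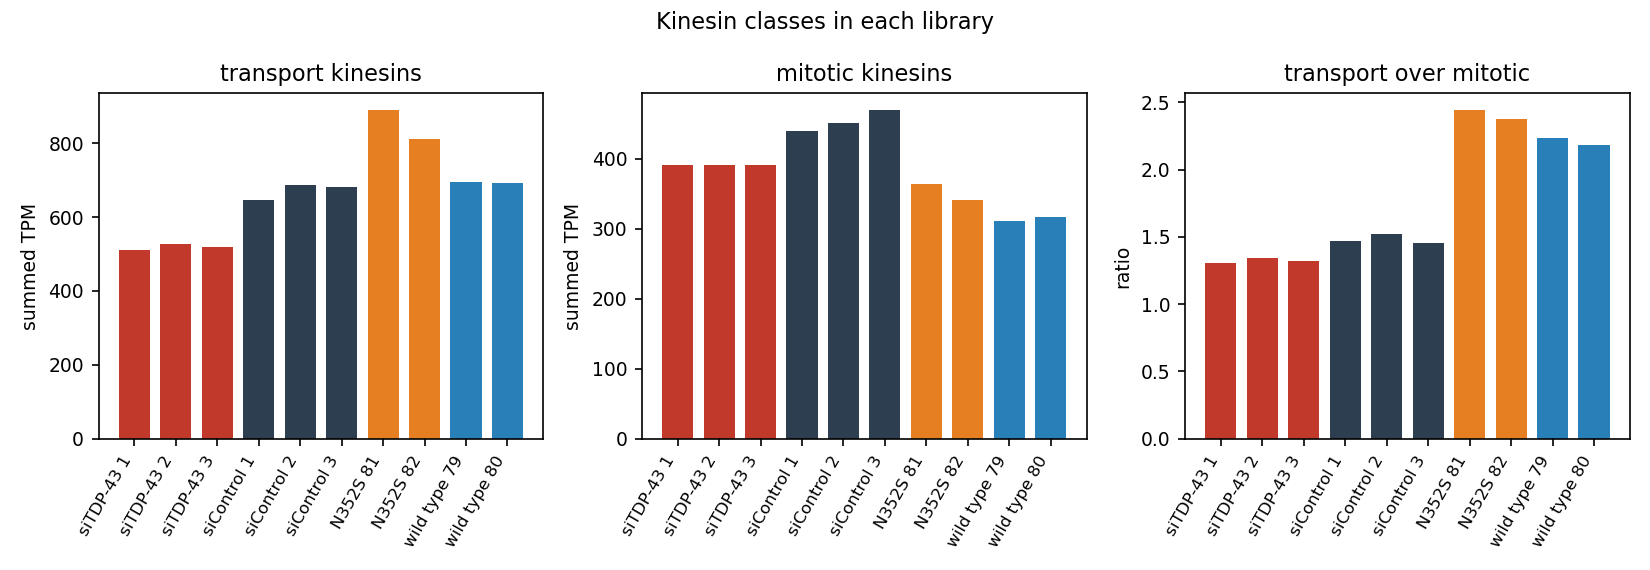
Summed TPM of transport and of mitotic kinesins and their ratio, with 1 bar for each library, siTDP-43 left of siControl and N352S left of wild type. The siTDP-43 libraries have a transport sum of 512 to 526 TPM, the lowest of the 4 groups, and the N352S libraries the highest, at 811 and 890 TPM.

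The 2 control groups also stood apart in some kinesins. KIF1A averaged 53.0 ± 3.97 TPM in siControl (SD, n = 3) and 140 ± 3.30 TPM in wild type libraries (SD, n = 2), and KIF1C 23.3 ± 1.42 and 10.2 ± 0.16 TPM. Transfection differs between them, and clone or any other condition may differ too. These cannot be told apart, so each change above is set only against its own control.

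Strand use in counting is not given in the sources used here, and several kinesins overlap expressed genes on the opposite strand: KIF20A overlaps CDC23 and BRD8, KIF2A overlaps DIMT1 and the pseudogene CKS1BP3, KIF4A overlaps PDZD11, KIF18A overlaps METTL15, and KIF9, KIF7 and KIF24 overlap KLHL18, TICRR and UBAP1. The overlaps were taken from whole gene spans, introns included. Only reads from transcribed stretches that both genes of a pair share could not be told apart without strand, and their share was not tested.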

How the data were processed

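Per the submitters' processing notes, reads were handled with STAR and RSEM on hg38; neither versions nor an annotation is stated there. The deposited table holds TPM per gene and library, made by the authors, with no counts, so depth is unknown and no count model was used. Gene IDs were matched to GENCODE 29 (57836 of 58174), used for coordinates. Tests used limma 3.58.1 in R 4.3.3 with an intensity trend on log2(TPM + 1), for the 17118 genes averaging 1 TPM or more, with 4 group means, 6 residual degrees of freedom and Benjamini-Hochberg adjusted p over all tested genes, called under 0.05. All 4 groups shared 1 estimate of spread. The script was tested on simulated data.

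Same-numbered siRNA libraries deviated together weakly (r = 0.34, 0.14 and 0.20 across genes), against -0.27 to 0.09 for siRNA libraries of unlike number. The labels do not state a pairing, so the main test did not use one. Replicate number as a block was an alternative. The N352S and wild type libraries share no numbers. The members and lists were chosen with earlier results of these data known. Named genes were all transport and mitotic kinesins and other kinesins above 1 TPM. Values in every library were given for TARDBP, the 4 transport, 3 mitotic and 3 other called kinesins with the smallest adjusted p, and the 2 most abundant of each class; KIF5A and KIF18B in siTDP-43 cells, KIF1A in N352S cells and KIF6, and genes that spell out counts of 5 or fewer, were added after their values were seen. From the other lists, up to 3 called genes with the smallest adjusted p were named, and some of these are not reported here. Alternatives changed the pseudocount, filter, scaling, variance model, threshold or block, or left out each of 10 libraries.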

Additional observations from a re-analysis of the deposited data

Results flagged for a closer look

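The effect of TDP-43 siRNA (siTDP-43 minus siControl) differed from the effect of the N352S change (N352S minus wild type) in 14 of 33 tested kinesins. Calls are by limma's contrast of the 2 effects with adjusted p under 0.05. The difference was called negative for 12 and positive for 2, beside 13.8% and 8.2% of all tested genes. Among transport kinesins the difference on the log2(TPM + 1) scale was -1.54 for KIF21A, -1.22 for KIF5C, -0.91 for KIF1A and 0.72 for KIF1B. Among mitotic kinesins it was -0.58 for KIF14, -0.53 for KIF2C, -0.51 for KIF20A, -0.42 for KIF11, -0.31 for KIF23 and -0.30 for KIF18A. Among the others it was -1.22 for KIF16B, -0.55 for KIF13B, -0.30 for KIF22 and 0.47 for KIF26B. Of these 14, 10 were called under every alternative tried. KIF13B lost its call at an adjusted p threshold of 0.01, and KIF11, KIF18A and KIF22 lost theirs when single libraries were left out. KIF22 also lost its call under quantile normalization and without mitochondrially encoded genes (limma adjusted p = 0.0981 and 0.0529). The experiments differ in transfection as well as in TDP-43, and the groups held 3 or 2 libraries, so no group was large enough for a check for single outlying libraries.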

How the results depend on the processing

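The number of kinesins that rose in siTDP-43 cells, 2 in the main test, was 1 with a pseudocount of 0.1, no filter on low TPM, no variance trend or a threshold of 0.01, 4 under median-of-ratios scaling, quantile normalization or without mitochondrially encoded genes, and 1 to 2 on leaving out each library. The number that fell, 17, was 10 under median-of-ratios scaling, quantile normalization or a threshold of 0.01, and 11 to 16 on leaving out each library, lowest without siTDP-43 replicate 1. In N352S cells, 8 rose, against 5 with only the compared groups fitted, 3 at a threshold of 0.01 and 3 to 10 on leaving out each library; 4 fell, against 2 with no filter, 2 with only the compared groups, 1 at 0.01 and 1 to 5. Mitotic kinesins that rose in N352S cells numbered 2, against 4 under median-of-ratios scaling or quantile normalization, 1 with no filter, under the block or at 0.01, 0 with only the compared groups, and 0 to 3 on leaving out each library (0 without wild type replicate 79). The counts for the difference between the effects, 2 above and 12 below 0, ranged over 2 to 3 and 10 to 13 on leaving out each library. The log2 ratio of transport to mitotic TPM was -0.16 for siTDP-43 over siControl, -0.0293 from means of log2 values, -0.0882 without the most abundant member of each class and -0.17 to -0.14 on leaving out each library. For N352S over wild type it was 0.12, reversed to -0.12 and -0.0943 under the same changes, and 0.10 to 0.14 on leaving out each library. The cause was not tested. With replicate number as a block, 2 kinesins rose and 15 fell in siTDP-43 cells, 7 rose and 5 fell in N352S cells, and the block changed no call other than those named above. No called kinesin changed sign; among uncalled ones 11, 3 and 9 values did, in siTDP-43 cells, N352S cells and the difference. Over all genes, quantile normalization gave 1932 that rose and 2015 that fell in siTDP-43 cells, and leaving out mitochondrial genes 1409 and 2707. Unknown depth limits the lowest genes most.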

Other observations

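Kinesin-2 drives intraflagellar transport, the traffic along cilia, and its partners were tested as a list of 17 genes. In siTDP-43 cells 5 fell and none rose, with a median log2 change of -0.15, beside 19.8% of all tested genes that fell. WDR35, a retrograde-complex subunit, averaged 17.6 ± 1.07 TPM in siTDP-43 and 25.1 ± 1.28 TPM in siControl libraries (SD, n = 3 each; limma adjusted p = 0.001198), and IFT88 (limma adjusted p = 0.0278) and IFT46 (limma adjusted p = 0.0334) fell too. In N352S cells 2 rose and 1 fell, near the 8.28% and 11.9% of all tested genes. IFT172 averaged 27.0 ± 2.64 TPM in N352S and 17.7 ± 1.90 TPM in wild type libraries (SD, n = 2 each; limma adjusted p = 0.005817), IFT27 rose (limma adjusted p = 0.036) and IFT22 fell (limma adjusted p = 0.0113).

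Among kinesins too low to test, KIF6 was at 1.34, 1.53 and 1.34 TPM in siTDP-43 libraries, against 1.16, 1.10 and 1.03 TPM in siControl libraries, and at 0.28 and 0.36 TPM in N352S libraries, against 1.13 and 0.61 TPM in wild type libraries.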
